A study of Zea mays with 2 samples.

Results

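Cytokinins are adenine-derived hormones that promote cell division and delay the yellowing of leaves. Their level is set by synthesis, by activation of nucleotide precursors, by conjugation to sugars and by irreversible cleavage of the side chain. Cytokinin dehydrogenase (CKX), also called cytokinin oxidase, carries out that cleavage, while enzymes of the LONELY GUY (LOG) type release the active free base from its nucleotide. The hormone is sensed by membrane histidine kinases, which pass phosphate through histidine phosphotransfer proteins to response regulators.

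The genes described here are CKX10 (GRMZM2G348452) and every locus whose deposited description contains the word cytokinin, 10 loci of 39634 in the gene tables. Of these, 1 encodes a degradation enzyme, 8 are annotated as LOG-type phosphoribohydrolases and 1 as a cytokinin 7-beta-glucosyltransferase. CKX10 was chosen by its measured values, its FPKM in both libraries and the ratio between them, so its difference is given as a description and supports nothing further. The other 9 were found by their description alone.

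Leaves of the maize strain Sugar 75 at the V5 stage, in which the plant carries young vegetative leaves, were taken from untreated plants (control) and from plants given a seaweed extract (treated). The series title places the work under drought, but whether both groups were droughted, and the alga, dose and timing of the extract, are not stated in the labels. Each group is 1 library from a pool of 3 samples, analysed with 2 technical replicates per the series text. The title of the treated library calls it only a sample, and it was taken as treated because the other library is named as the control. Levels are FPKM (sequenced fragments, scaled to the length of the gene and to the size of the library), and each is followed by its deposited interval, which reflects how well the reads of that library fix the value and says nothing of how plants vary. Since each group has a single library, differences were not checked by replicates and no p-value was computed.

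The libraries carried the marks of leaf tissue. The mesophyll genes pep1 and ppdk1, for the enzymes that fix and regenerate carbon in the C4 cycle, summed to 5318 FPKM in control leaves and 4420 FPKM in treated leaves, whereas the meristem gene kn1 had 0.034 FPKM in control leaves and was listed at 0 in treated leaves, and gn1, also a meristem gene, was listed at 0 in both. The root gene rtcs1 was listed at 0 in both, while rth1, a root hair gene, had 5.82 and 7.55 FPKM. Differences are given as log2((treated + 1)/(control + 1)), with 1 FPKM as the pseudocount, for the 16272 genes that reached 1 FPKM in either library. A gene is called higher or lower at a log2 ratio of at least 1 or at most -1. The median gene had a log2 ratio of 0.22, so ratios are also given after the libraries were centred on the median ratio of genes detected in both.

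CKX10 was the most abundant cytokinin dehydrogenase in the control leaves and had a much lower value in the treated ones. Its level was 31.5 FPKM (29.1 to 33.8) in the control library and 2.098 FPKM (1.496 to 2.70) in treated leaves. The intervals lay far apart, and the treated value was 15.0-fold lower (10.8-fold to 22.6-fold from the opposite ends of the intervals). The log2 ratio was -3.39, or -3.56 after centring. By width, the intervals correspond to about 700.2 fragments in control leaves and 48.6 in treated leaves, so the low treated value does not rest on single reads. In bulk leaf RNA, fewer cells that express a gene and less of its RNA per cell cannot be told apart.

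Set against all genes, 2.52% were lower by the same rule, and CKX10 held place 24 from the lowest ratio among 16272 genes. Among 1441 genes within 2-fold of its control level, 71 were lower and 16 had a ratio at or below that of CKX10, with a median log2 ratio of 0.17 for the whole group. By level, CKX10 stood at place 853 of all genes in control leaves and at place 12300 in treated leaves. In the authors' deposited table its log2 fold change is -4.22 with a p-value of 5e-05 and a q-value of 0.00995. That p-value is the smallest in the authors' deposited table of lower genes and is shared by 66 of its 631 genes. It compares 2 libraries and not the 2 conditions. From the library tables without a pseudocount the log2 ratio is -3.91, so the deposited sources differ in the size of the CKX10 difference, and the reason was not tested.

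**Figure D1:**
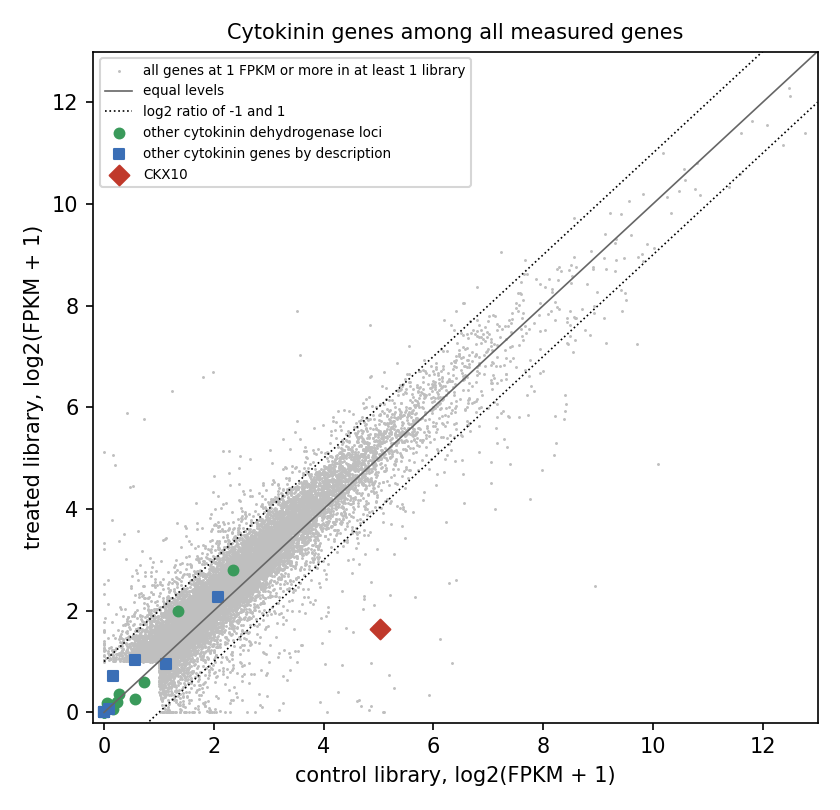
Level of each gene in the control library (horizontal axis) and in treated leaves (vertical axis), both as log2(FPKM + 1). Grey points are the 16272 genes that reached 1 FPKM in either library, the solid line marks equal levels and the dotted lines log2 ratios of -1 and 1. CKX10 (red diamond) lies far below the lower dotted line, while the other cytokinin dehydrogenase loci (green) and the other cytokinin genes (blue squares) lie near the line of equal levels or at the origin.

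CKX10 lies on chromosome 1 from 207708924 to 207713476 in the coordinates of the files, for which the sources used here name no genome build. No other listed locus overlaps it, so no overlapping neighbour shares its reads. The nearest of the 5 loci on each side is 69670 bases away. Of these 10 neighbours, 4 were listed at 0 in both libraries and 3 reached 1 FPKM. None of these 3 was called higher or lower, against 3.71% and 2.52% of all genes at that minimum. The other neighbours, being under it, could not be called. The log2 ratios of the neighbours ran from -0.18 to 0.46. The 1 neighbour whose intervals did not overlap as deposited, though they did after centring, was GRMZM2G092823, a cytochrome P450 locus with 0.53 FPKM in control leaves and 1.10 in treated leaves.

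LOG-type genes, which turn inactive nucleotides into active hormone, were weakly expressed among the 10 loci and showed no difference of comparable size. GRMZM2G019363, described as LOG5 and located on chromosome 7 (147202511 to 147205112), had 3.23 FPKM (2.52 to 3.94) in control leaves and 3.80 FPKM (2.98 to 4.62) in treated leaves. GRMZM5G879665, a LOG3-related locus on chromosome 1 (230921553 to 230924249), had 1.20 FPKM (0.66 to 1.73) and 0.94 FPKM (0.42 to 1.47). GRMZM2G008726, a LOG8-related locus on chromosome 3 (204285089 to 204288061), had 0.47 FPKM (0.18 to 0.76) and 1.04 FPKM (0.56 to 1.51). The intervals of the 2 libraries overlapped for each of these 3 genes. Their log2 ratios were 0.18, -0.18 and 0.47, and the first changed sign to -0.024 after centring.

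The remaining 6 loci stayed under 1 FPKM in both libraries. The 7-beta-glucosyltransferase locus GRMZM2G117878, annotated to inactivate cytokinins by adding glucose, had 0.12 FPKM (0 to 0.24) in control leaves and 0.63 FPKM (0.33 to 0.94) in treated leaves. Its intervals did not overlap, but they correspond to only about 4.0 and 17.0 fragments, and the locus did not reach the minimum for a call. The LOG7 locus GRMZM5G842645 had 0.069 and 0.043 FPKM, both with intervals that reach 0. The LOG3-related loci GRMZM2G155680, GRMZM2G100360, GRMZM2G471931 and GRMZM5G896859 were listed at 0 in both libraries. Such a 0 can be a missing estimate as well as an absent transcript, and near-identical family members can share reads.

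**Figure D2:**
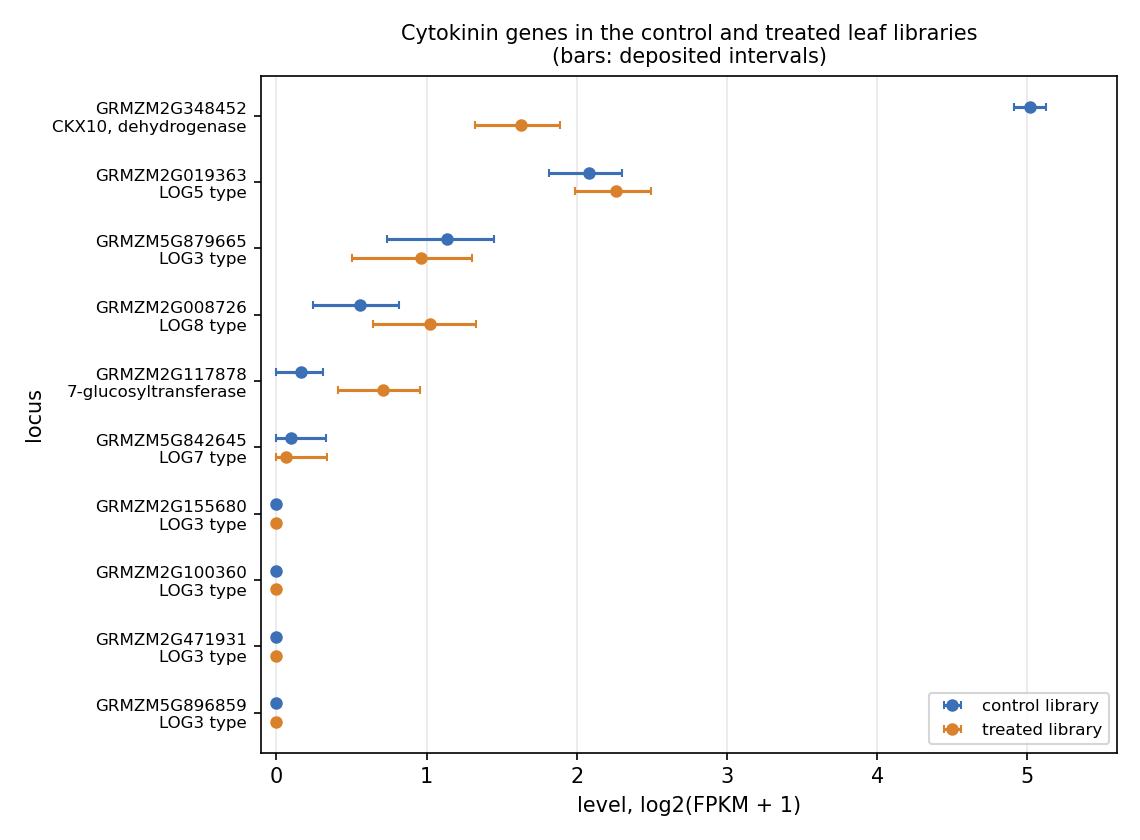
Level of each of the 10 cytokinin loci as log2(FPKM + 1) on the horizontal axis, with the control library in blue, the treated library in orange and bars for the deposited intervals. CKX10 is the only locus of the 10 above 5 FPKM in either library, and 4 LOG3-type loci sit at 0 in both.

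Thus 1 of the 4 cytokinin loci at 1 FPKM or more was lower, none was higher, and the lower one was the gene chosen for its difference. The backgrounds over all genes were 2.52% lower and 3.71% higher, and 3.39% and 2.04% after centring, which left these calls of the 4 loci as they were. The 3 others, all LOG-type, had a median log2 ratio of 0.18, close to the 0.22 of all genes, and -0.024 after centring, where the median of all genes was 0.01. Their deposited intervals overlapped, while over all genes 28.6% had intervals apart with the treated library higher and 8.76% with it lower. With the treated bounds centred as well, a check added after the values had been seen, these shares were 13.5% and 16.2%, and the intervals of the 3 loci still overlapped. Summed over the 9 other loci, the level was 5.09 FPKM in control leaves and 6.46 FPKM in treated leaves.

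The description field names 1 degradation gene, but the tables annotate further loci with cytokinin dehydrogenase activity or carry them under CKX and cko names. This wider family, assembled after the values had been seen, has 15 loci. The other 14 are all described there only by the related gulonolactone oxidase family. Of the 15, 3 reached 1 FPKM in at least 1 library. The gene cko2 (GRMZM2G050997) had 4.09 FPKM (3.53 to 4.66) in control leaves and 5.98 FPKM (5.24 to 6.73) in treated leaves. CKX4 (GRMZM5G817173) had 1.55 FPKM (1.04 to 2.05) and 3.003 FPKM (2.196 to 3.81). For both genes the treated library had the higher value with deposited intervals that did not overlap, but after centring the intervals of both overlapped. Their log2 ratios of 0.46 and 0.65 (0.23 and 0.46 after centring) did not reach 1, and 28.6% of all genes had intervals apart in that direction.

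A further 7 dehydrogenase loci stayed under 1 FPKM with overlapping intervals, from 0.035 to 0.65 FPKM in control leaves and from 0.053 to 0.52 FPKM in treated leaves. These include ckx1 (GRMZM2G146644) at 0.65 and 0.52 FPKM and cko3 (GRMZM2G167220) at 0.48 and 0.19 FPKM. The last 5 loci, among them both loci that carry the name CKX8, were listed at 0 in both. CKX10 made up 81.0% of the summed FPKM of the family in control leaves and 16.8% in treated leaves. The family sum was 38.8 FPKM in control leaves and 12.5 FPKM in treated leaves. Without CKX10 it was 7.39 and 10.4 FPKM, so the order of the libraries in the family sum turned on that gene, and cko2 was the most abundant member in the treated leaves.

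**Figure D3:**
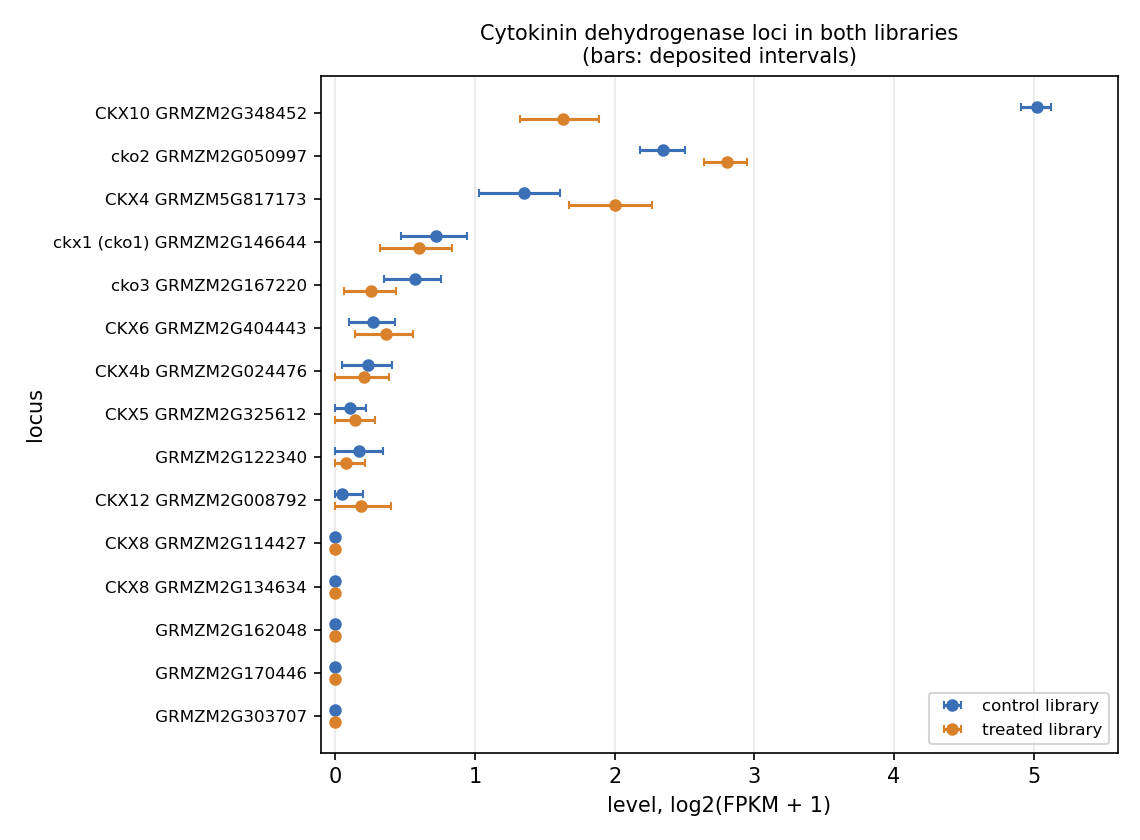
Level of the 15 loci annotated or named as cytokinin dehydrogenases as log2(FPKM + 1), control in blue and treated in orange, with bars for the deposited intervals. CKX10 is lower in treated leaves, cko2 and CKX4 have higher treated values with deposited intervals apart (overlapping after centring), and the other 12 loci are below 1 FPKM in both libraries.

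On the supply side, the largest difference in the list of synthesis genes was in IPT1 (GRMZM2G097258), described as a tRNA prenyltransferase, an enzyme type that adds the isoprenoid side chain to tRNA, a source of cis-zeatin. It had 1.57 FPKM (1.18 to 1.95) in control leaves and 4.03 FPKM (3.36 to 4.71) in treated leaves. The intervals did not overlap, and its value was 2.57-fold higher in treated leaves. Its log2 ratio of 0.97 fell just short of a call (0.76 after centring). GRMZM2G102915, also named IPT and with the same description, had 0.40 FPKM in control leaves and 0.38 in treated leaves, with overlapping intervals. The authors' deposited tables of higher genes hold no locus of the cytokinin lists, IPT1 included. The 4 loci described as adenylate isopentenyltransferases, the enzymes that start the main route of synthesis, stayed under 1 FPKM. GRMZM2G415751 had 0.22 FPKM in control leaves and 0.56 in treated leaves, GRMZM2G025429 had 0.28 and 0.32, GRMZM2G436770 had 0 and 0.057, and GRMZM2G393014 was listed at 0 in both. The intervals of the first 3 overlapped. Of 14 synthesis loci, which include the 8 LOG-type loci, 4 reached 1 FPKM and none was higher or lower (backgrounds 3.71% and 2.52%). Their median log2 ratio was 0.32, and 0.16 after centring.

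The tables hold LOG-type loci of the same protein family that are described only by their domain, a set added after the values had been seen. The most abundant, GRMZM2G059392, had 19.9 FPKM (18.0 to 21.8) in control leaves and 22.5 FPKM (20.3 to 24.7) in treated leaves, with overlapping intervals and a log2 ratio of 0.17 (-0.09 after centring). GRMZM2G021406 had 6.31 FPKM (5.27 to 7.34) and 10.05 FPKM (8.59 to 11.5), with intervals apart as deposited but not after centring and a log2 ratio of 0.60 (0.36 after centring). None of the 5 LOG-type loci at 1 FPKM or more, of 12, was called (backgrounds 3.71% higher and 2.52% lower). Among 7 conjugation loci only czog1 (GRMZM2G168474), a cis-zeatin O-glucosyltransferase gene, reached 1 FPKM, with 1.85 and 2.75 FPKM and overlapping intervals. The related CZOG2 (GRMZM2G110511) had 0.64 and 0.27 FPKM, and the trans-zeatin O-glucosyltransferase locus GRMZM2G325023 had 0.46 and 0.56 FPKM, both with overlapping intervals.

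The genes that carry the signal showed differences of both signs, none of them a call as deposited with 1 FPKM added. That pseudocount shrinks the ratios of weakly expressed loci. Without it, the treated value was 2.21-fold higher for the receptor locus GRMZM2G423456 and 2.03-fold lower for the response regulator locus GRMZM2G179827. Of 7 receptor histidine kinase loci, 6 reached 1 FPKM and none was called (backgrounds 3.71% higher and 2.52% lower). Their median log2 ratio was 0.18 (-0.003 after centring). HK1b2 (GRMZM5G833140) had 9.60 FPKM (8.82 to 10.4) in control leaves and 6.91 FPKM (6.20 to 7.62) in treated leaves, with a log2 ratio of -0.42 (-0.65 after centring). HK1b1 (GRMZM2G155767) had 7.14 and 6.97 FPKM, with intervals that overlapped as deposited but not after centring, where its log2 ratio was -0.26. HK1 (GRMZM2G151223) had 2.33 FPKM (1.97 to 2.68) and 3.19 FPKM (2.74 to 3.63), with intervals apart as deposited but not after centring. On the deposited scale the largest difference of the receptors was in the histidine kinase 3 type locus GRMZM2G423456, with 1.29 FPKM (1.05 to 1.53) in control leaves and 2.84 FPKM (2.44 to 3.25) in treated leaves. Its log2 ratio was 0.75, and 0.56 after centring, where HK1b2 had the larger difference.

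Of the phosphotransfer protein genes, all 5 at 1 FPKM or more, 4 had a higher treated value and 1 a lower one. Their median log2 ratio was 0.57 (0.38 after centring). Among all 16272 genes, 11620 had a positive deposited log2 ratio and 4652 a negative one. HP3 (GRMZM2G451604) had 0.97 and 1.94 FPKM and GRMZM2G124890 had 0.85 and 1.51 FPKM, both with overlapping intervals. hp2 (GRMZM2G014154) had 13.5 FPKM (11.8 to 15.2) in control leaves and 24.3 FPKM (21.8 to 26.9) in treated leaves, and HP1 (GRMZM2G016439) had 5.46 FPKM (4.46 to 6.46) and 8.91 FPKM (7.49 to 10.3). GRMZM2G039246, of the same family, had the opposite order at 18.6 FPKM (16.7 to 20.5) in control leaves and 10.5 FPKM (8.95 to 12.1) in treated leaves. The deposited intervals of these 3 genes did not overlap, and after centring those of HP1 did. Their log2 ratios were 0.81, 0.62 and -0.76, none a call as deposited. After centring the last reached -1.01, which is a call of lower (background 3.39%). Over all genes, 28.6% had deposited intervals apart with the treated library higher and 8.76% with it lower. After centring these shares were 13.5% and 16.2%. In the authors' deposited table GRMZM2G039246 has a log2 fold change of -1.06 with a p-value of 0.0449 and a q-value of 0.884.

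Response regulators are of several kinds. Those of type B carry a Myb DNA-binding domain and switch on transcription, whereas genes of type A, whose proteins have a receiver domain without it, are rapidly induced by cytokinin in Arabidopsis and maize. None of the 15 regulator loci at 1 FPKM or more, of 29, was called higher or lower (backgrounds 3.71% and 2.52%). A split by the Myb domain, made after the values had been seen, gave 6 loci with it at a median log2 ratio of 0.42 (0.20 after centring) and 9 without it at -0.16 (-0.34 after centring). The receiver-only set may hold regulators that are not of type A.

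Among regulators with the Myb domain, RR9 (GRMZM2G060485) had 4.54 FPKM (3.91 to 5.16) in control leaves and 7.48 FPKM (6.60 to 8.37) in treated leaves. RR10 (GRMZM2G126834) had 3.95 FPKM (3.39 to 4.51) and 5.92 FPKM (5.16 to 6.68). RR8 (GRMZM2G099797) had 3.92 and 5.31 FPKM with overlapping intervals. GRMZM2G479110 had 2.76 FPKM (2.39 to 3.13) and 4.56 FPKM (4.04 to 5.08), with intervals apart as deposited and after centring. The order was the opposite in GRMZM2G177220, with 1.93 FPKM (1.52 to 2.34) in control leaves and 1.25 FPKM (0.89 to 1.61) in treated leaves and a log2 ratio of -0.38. After centring its ratio of -0.52 was the largest difference of the 6. GRMZM2G100318 had 1.16 and 1.08 FPKM with overlapping intervals. By deposited intervals, 3 of the 6 loci were apart with the treated value higher and none with it lower, against 28.6% and 8.76% of all genes. After centring the intervals of RR10 overlapped and those of GRMZM2G177220 did not, which made 2 loci higher and 1 lower, against 13.5% and 16.2%.

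Among regulators without the domain, the most abundant, RR6 (GRMZM2G129954), had 15.8 FPKM (14.4 to 17.3) in control leaves and 15.1 FPKM (13.5 to 16.6) in treated leaves. Its deposited intervals overlapped, but after centring they did not, and its log2 ratio moved from -0.07 to -0.32. GRMZM2G488465 had 6.80 FPKM (5.62 to 7.98) and 8.28 FPKM (6.85 to 9.70), with overlapping intervals, and crr5 (GRMZM2G156019) had 5.62 FPKM (4.79 to 6.45) and 4.93 FPKM (4.08 to 5.78), also overlapping. Lower treated values with intervals apart were found in less abundant loci. RR4 (GRMZM2G319187) had 4.11 FPKM (3.28 to 4.94) in control leaves and 2.16 FPKM (1.498 to 2.81) in treated leaves, and RR7 (GRMZM2G096171) had 5.09 FPKM (4.26 to 5.93) and 3.39 FPKM (2.63 to 4.15). The largest difference was in GRMZM2G179827, with 3.66 FPKM (2.93 to 4.38) in control leaves and 1.803 FPKM (1.18 to 2.43) in treated leaves and a log2 ratio of -0.73 (-0.90 after centring). By deposited intervals 3 of the 9 loci were apart with the treated value lower and none with it higher, against 8.76% and 28.6% of all genes. After centring, which adds RR6, the lower count was 4 and the higher count 0, against 16.2% and 13.5%. In the authors' deposited table GRMZM2G179827 has a log2 fold change of -1.32 with a p-value of 0.0454 and a q-value of 0.89.

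Transport genes of the purine permease type, a family with cytokinin carriers, numbered 6. Of these, 3 reached 1 FPKM and none was called (backgrounds 3.71% higher and 2.52% lower). The most abundant, GRMZM2G009344, had 4.21 FPKM (3.40 to 5.02) in control leaves and 6.49 FPKM (5.33 to 7.66) in treated leaves, with intervals apart as deposited but not after centring. GRMZM2G103840 had 0.75 and 1.33 FPKM. The largest difference was in GRMZM2G416625, with 0.47 and 1.13 FPKM and overlapping intervals. The median log2 ratio of the 3 was 0.52, and 0.30 after centring.

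**Figure D4:**
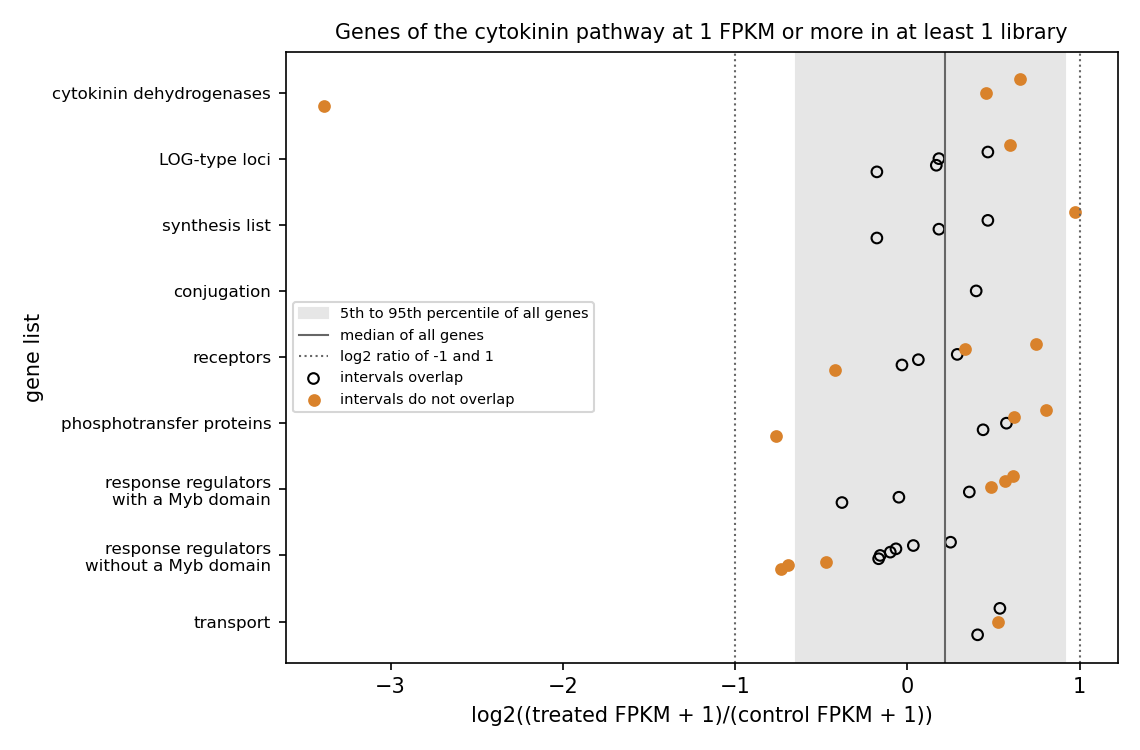
Log2 ratio of the treated to the control library (horizontal axis, with 1 FPKM added) for genes of each cytokinin list that reached 1 FPKM in either library; orange points have intervals that do not overlap as deposited, and the synthesis and LOG-type lists share loci. On this scale CKX10 at -3.39 is the only point beyond the dotted lines. The grey band spans the 5th to 95th percentile of all genes, from -0.65 to 0.91.

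The annotated genes with levels most like those of CKX10, by distance on the log2(FPKM + 1) scale over the 2 libraries, were in other pathways. The nearest was GRMZM2G056424, annotated as the photosystem II repair protein PSB27, with 29.3 FPKM (26.5 to 32.1) in control leaves and 2.23 FPKM (1.35 to 3.11) in treated leaves. Next came the polyamine oxidase gene pao1 (GRMZM2G034152), with 22.2 FPKM (20.6 to 23.8) and 1.98 FPKM (1.43 to 2.53). The third, the F-box locus GRMZM2G138176, had 25.4 FPKM (0 to 85.2) and 3.07 FPKM (1.53 to 4.61), so that its likeness cannot be judged.

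Markers of leaf age and of leaf cell types also differed between the libraries. All 3 senescence-enhanced genes had higher values in treated leaves, after centring too. As deposited, 11620 of 16272 genes had a positive log2 ratio. The cysteine protease genes see1 (GRMZM2G038636) and see2b (GRMZM2G093032) had 192 and 92.6 FPKM in control leaves and 351 and 264 FPKM in treated leaves, and see2a (GRMZM2G081626) had 9.49 and 19.3 FPKM. The 3 bundle sheath genes me3, ssu1 and rca1 summed to 1592 FPKM in control leaves and 882 FPKM in treated leaves. Their log2 ratios were unequal, at -0.68, -2.12 and -0.93 (-0.94, -2.38 and -1.20 after centring). As deposited only ssu1 was called lower (background 2.52%), and after centring rca1 was too (background 3.39%). The mesophyll genes pep1 and ppdk1 also had lower treated values, with log2 ratios of -0.47 and -0.18. The part of leaf age, cell makeup or library in the CKX10 difference was not tested.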

How the data were processed

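Leaf RNA of 2 pools was sequenced, and the values used are FPKM with interval bounds as deposited by the authors, 1 table per library, per the file headers. Per the submitters' processing notes the tools include Cuffdiff, Cufflinks 2.2.1, Picard 1.115, TopHat2 2.1.0, Bowtie2 2.2.6 and cutadapt 1.8.1. Their roles, the genome build and the treatment of strand are not given in the sources used here. Comparison tables of the authors, deposited with the libraries, give a log2 fold change, a p-value and a q-value per gene, quoted as such. Their 8 FPKM columns are headed as sample 1 and sample 2, not by a library's label, and were left out; their fold change for CKX10 differs from that of the library tables, as stated with its value.

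The 2 library tables were joined by gene identifier (Python 3.11.15, pandas 2.3.3). Log2 ratios with a pseudocount of 1 FPKM were computed, and no test was run. Centring divided the treated values by 1.20, the median ratio of genes that reached 1 FPKM in each library. An implied fragment number is the square of 2 times the value over the distance to its upper bound; library totals are unknown, and the median distance was 20.2% (control) and 21.6% (treated) of the value for genes at 1 to 10 FPKM.

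Loci and lists were chosen with earlier results of these data known. Members at 1 FPKM or more are all named; from the pathway lists, the 3 most abundant genes and the one with the largest difference were eligible, with others named after their values were seen. Gene names came from the files and the RefSeq table of Zm-B73-REFERENCE-NAM-5.0, which matched 8 of the 10 loci. A further cell type marker is not reported here. No sequence is shown, since none was used here. Alternatives were other pseudocounts, scalings (of intervals too), minimums, thresholds and family definitions.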

Additional observations from a re-analysis of the deposited data

How the results depend on the processing

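The CKX10 log2 ratio was -3.62 with a pseudocount of 0.5 FPKM, -3.56 after centring and -3.37 with both libraries rescaled to the same sum, all within -3.80 to -3.02, the span of its intervals. With a pseudocount of 0.1 FPKM it was -3.84, by construction of the scale. CKX10 is the only degradation gene by description, so the same values are the degradation median, and without it no value remained. Over all dehydrogenase loci at 1 FPKM or more, a definition added after seeing the data, the median reversed to 0.46, and to 0.55 without CKX10. These medians rest on 3 and 2 loci, of which cko2 (0.46) and CKX4 (0.65) had higher treated values. The median of the other cytokinin genes, 0.18, was -0.024 after centring and 0 without a minimum, which lets in loci listed at 0. With a minimum of 5 FPKM no such gene was left. Over all genes, 604 were higher and 410 lower. Counts were 1361 and 657 with a pseudocount of 0.1 FPKM, 921 higher with 0.5 FPKM, 332 higher after centring, 400.0 and 242 with a minimum of 5 FPKM, and 2696 and 922 at 1.5-fold. Higher genes made up 59.6% of the calls as deposited and 37.6% after centring. Calls in the pathway lists depend on the pseudocount too. Without one, the treated value was 2.57-fold higher for IPT1, 2.42-fold for GRMZM2G416625, 2.21-fold for GRMZM2G423456 and 2.19-fold for GRMZM2G008726. For GRMZM2G179827 it was 2.03-fold lower. Each of these differences would be a call on that scale as deposited. The share of all genes called without a pseudocount was not counted, and centred folds on that scale were not computed. No paired analysis was possible because each group has 1 library, and for the same reason no replicate could be left out. For loci under 1 FPKM, the few implied fragments limit what could be detected.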
